A study of Homo sapiens with 6 samples.

Results

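The KLF transcription factor family was examined in DU145, an established human prostate carcinoma cell line, after treatment with OTI-611, of which the sources used here give the code name and no structure. The members were chosen by gene symbol: KLF2, KLF3, KLF4, KLF5, KLF6, KLF7, KLF9, KLF10, KLF11 and KLF13. All 10 symbols matched 1 row each of a table of 32692 genes, and all 10 passed the minimum mean of 1 set for testing. One group of 3 libraries came from cells given 5 µM OTI-611 for 24 h, and the other group of 3 from cells given the solvent DMSO for 24 h. Both groups are the same cell line with no genetic change named in the labels. The labels do not say whether the 3 libraries of a group came from separate cultures, so the p-values measure the spread between these libraries, which may be technical.

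KLF proteins (Krüppel-like factors) bind GC-rich and CACCC-type DNA through a block of C2H2 zinc fingers at their C-terminal end, and they differ in the N-terminal parts that recruit other proteins. KLF2, KLF4, KLF5, KLF6 and KLF7 are mostly described as activators that work with acetyltransferases, KLF3 as a repressor that works with CtBP, and KLF9, KLF10, KLF11 and KLF13 as repressors that work with the SIN3A complex. In epithelia KLF4 is known from differentiating, non-dividing cells and KLF5 from proliferating ones, and KLF6 was described as a tumour suppressor in prostate carcinoma.

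Upstream sequence of the members is shown first, because KLF proteins bind GC-rich sequence and are known to act on the genes of other members. RefSeq windows on GRCh38.p14, the 250 bases before each annotated start, were matched for 8 members in 13 windows, with KLF3 and KLF10 unmatched. The KLF4 window (chr9:107489770-107490019, minus strand) is printed because this gene had the largest rise. It precedes a RefSeq start but lies inside the GENCODE v29 span of KLF4, which reaches 107490482. The KLF9 window (chr9:70414658-70414907, minus strand) is printed because this gene, like KLF5 and KLF10, had no detectable change. Both are written 5′ to 3′, and capitals mark GGGCGG or its reverse complement.
KLF4: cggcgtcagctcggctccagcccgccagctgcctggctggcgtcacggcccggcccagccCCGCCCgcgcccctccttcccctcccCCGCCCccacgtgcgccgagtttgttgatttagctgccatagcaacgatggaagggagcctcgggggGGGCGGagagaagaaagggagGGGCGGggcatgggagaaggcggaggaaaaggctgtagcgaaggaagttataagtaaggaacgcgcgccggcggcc
KLF9: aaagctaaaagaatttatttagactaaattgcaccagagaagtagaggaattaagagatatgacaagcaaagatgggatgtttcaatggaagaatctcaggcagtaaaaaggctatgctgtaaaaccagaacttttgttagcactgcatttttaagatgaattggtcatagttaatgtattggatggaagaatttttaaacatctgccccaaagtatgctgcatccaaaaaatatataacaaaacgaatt
The KLF4 window held 4 GGGCGG matches, which start 190, 164, 97 and 76 bases before the annotated start, 2 on each strand. Its GC content was 69.2%, against a median of 58% over the 35116 promoter windows of the table. The KLF9 window held no GGGCGG and no CACCC, and its GC content was 32.4%, the lowest of the 13 windows, with KLF2 the highest at 80%. KLF5, also without a detectable change, had a window of 40.8% GC with 1 CACCC and 0 GGGCGG matches. Its other window had 70.8% GC with 2 CACCC and 2 GGGCGG matches, so unchanged members had both kinds of window. So did KLF7, which rose: a window of 41.6% GC held neither motif, and another of 72% GC held 4 GGGCGG matches. A tie between window sequence and change was not tested.

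Across all 13 windows, GGGCGG was found in 8 and CACCC in 6 on either strand, while 42.6% and 54.7% of all windows hold these letters. The FOXO-type motif GTAAACA was found in 0 of the 13, against 2.98% of all windows. The stress-element letters TGATGNAA were also found in 0, against 3.14%, and the EGR-type GCGTGGGCG, which can overlap GGGCGG, in 0, against 0.72%. The cyclic AMP response element TGACGTCA was found in 1 of the 13 windows, a KLF11 window, against 1.65% of all windows. This window precedes a RefSeq start of KLF11 but lies inside the GENCODE v29 span of the gene, which begins at 10042849. It starts 176 bases before the start of that window's transcript. The stretch around it (chr2:10044034-10044063, plus strand) reads as follows, with the match in capitals.
KLF11: atttccagccaTGACGTCAccccggtcctg
A match is a run of letters and not a bound site, and no binding was measured in these samples.

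The deposited values of 5 libraries were taken as RPKM, which corrects reads for the length of the gene and the depth of the library, so levels can be compared between genes. DMSO 1 holds whole numbers only and is read as the same quantity without decimals. It lay below the mean of DMSO 2 and DMSO 3 for all 10 members, by between 0.02 (KLF13) and 11.2 RPKM (KLF6), and the gap for KLF6 and that for KLF4 (1.56) are larger than dropped decimals alone can give. The change of each member is therefore given also without DMSO 1, as are counts of the gene lists that differ and list medians that turn or move far. The steps between low values put the 2 remaining DMSO libraries at about 30.7 M and 32.4 M reads and the OTI-611 libraries at 37.3 M to 37.7 M, while DMSO 1 gave no estimate. At these depths an estimated 140 (KLF2, DMSO 2) to 28970 reads (KLF6) stood behind each member value in the 5 libraries with decimals. With reads taken as independent, this gives an estimated counting error of up to 8.44%, which leaves out any effect of the amplification. Of 8 markers listed for an epithelial carcinoma line, 7 were analysed here. The keratin genes KRT8, KRT18, KRT19 and KRT7, EPCAM and the mesenchymal gene VIM were at 13 RPKM or more in every library. CDH1, which encodes E-cadherin, was at 4 RPKM or more in every DMSO library and at 1.45 to 1.71 RPKM with OTI-611. In the comparison KRT8, KRT7 and CDH1 were called lower (log2 changes of -0.50, -0.32 and -1.09) and VIM and KRT19 higher (0.31 and 0.13), KRT19 not without DMSO 1. EPCAM (-0.01) and KRT18 (-0.004) did not pass, and the part of these markers in the results on KLF genes was not tested. The luminal prostate genes KLK2, KLK3, TMPRSS2 and HOXB13, and all 10 leukocyte, endothelial, fibroblast and smooth muscle markers found in the table, were under 1 in every library.

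With OTI-611, 7 of the 10 members rose, none fell, and 3 did not pass the test (limma adjusted p under 0.05 over all 11978 genes tested). At this threshold 65.2% of all tested genes were called, 27.8% higher and 37.3% lower. In genes these were 3332 higher and 4473 lower, against 3986 and 3978 after rescaling to the median log ratio and 4085 and 4115 after quantile normalization, with the same number of members, 7, higher in each. The share of members called in either direction is thus near that of genes in general, and the members were proposed with earlier results of these data known. The median log2 change was 0.30 over the members and -0.05 over all genes tested. Without DMSO 1 the same 7 members passed, all higher, where 68.7% of all genes passed, 26.3% higher and 42.4% lower. For these 7 members the lowest listed OTI-611 value exceeded the highest listed DMSO value, as it did for 30.5% of the genes tested. For KLF7 and KLF13 the missing decimals of DMSO 1 could undo this. Groups without overlap in either direction were seen for 70.2% of the genes tested. In bulk RNA, fewer cells with a transcript and less of it per cell cannot be told apart. An exact permutation test of 1 gene in 3 against 3 libraries cannot go below a two-sided p of 0.10, so single members were tested with the limma fit over the whole table.

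**Figure D1:**
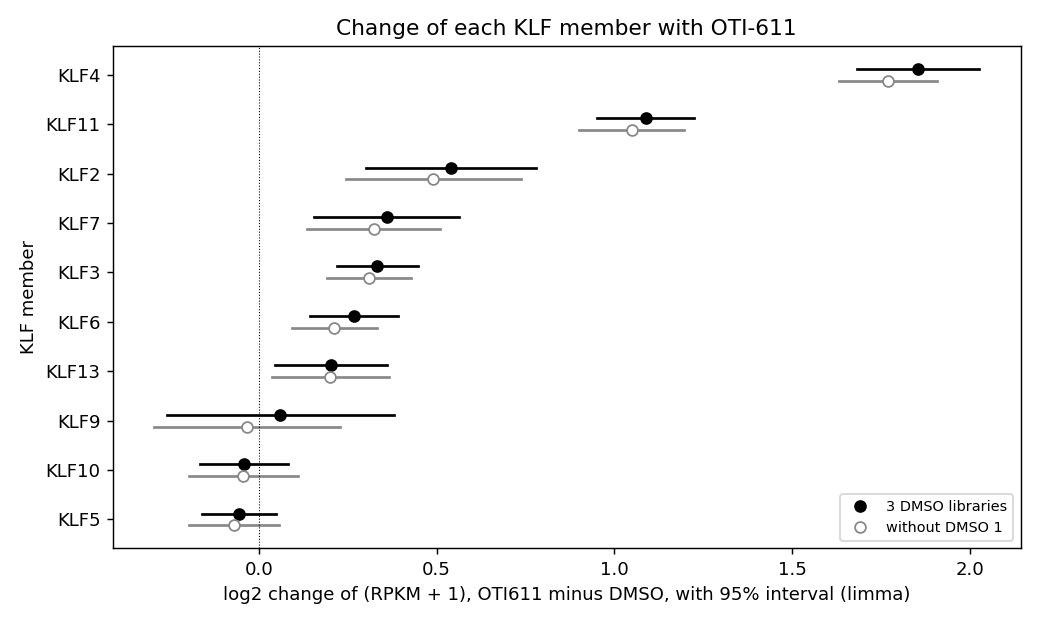
Log2 change of (RPKM + 1) for each KLF member, OTI-611 minus DMSO, with 95% intervals from limma. Filled points use all 3 DMSO libraries and open points leave out DMSO 1; KLF4 (1.85) and KLF11 (1.09) stand furthest to the right, and the intervals of KLF9, KLF10 and KLF5 include 0.

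Among the activators, KLF4 changed most. This factor, one of those used to reprogram somatic cells to pluripotency, lies on chromosome 9 from 107484852 to 107490482 (minus strand, GENCODE v29 on GRCh38). It was at 7, 8.31 and 8.81 RPKM in the DMSO libraries, and at 30.1, 30.7 and 34.0 RPKM in the OTI-611 libraries. The 3 treated libraries lie close together and far above the controls. The log2 change was 1.85 ± 0.076 (SE, limma adjusted p = 9.69e-08), the 22nd highest of the 11978 genes tested, against 1.77 without DMSO 1 (adjusted p = 1.91e-06). On the RPKM scale the OTI-611 mean was 3.69 times that of DMSO 2 and DMSO 3.

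KLF2, best known as a flow-responsive factor of endothelial cells, lies on chromosome 19 from 16324817 to 16327874. It was low, at 2, 2.26 and 2.38 RPKM with DMSO and at 3.17, 3.60 and 4.31 RPKM with OTI-611. The OTI-611 libraries spread more widely than the controls, without overlap. Its log2 change was 0.54 ± 0.11 (SE; limma adjusted p = 0.0015), against 0.49 without DMSO 1 (adjusted p = 0.0045). The size depends on the pseudocount, at 0.70 with 0.1 and 0.27 with 5, both past the threshold. On the RPKM scale the OTI-611 mean was 1.59 times that of DMSO 2 and DMSO 3. The 5 libraries with decimals hold an estimated 140, 156, 239, 271 and 328 reads of KLF2, so its counting error is the largest of the 10 members.

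KLF6 was the most abundant member by far. It lies on chromosome 10 from 3775996 to 3785281. Its values were 92, 107 and 99.7 RPKM with DMSO and 113, 122 and 125 RPKM with OTI-611. The highest control, DMSO 2, and the lowest treated library, OTI-611 1, were 107 and 113, so the groups stand apart by little. The log2 change was 0.27 ± 0.055 (SE; limma adjusted p = 0.002), against 0.21 without DMSO 1 (adjusted p = 0.0077), a ratio of 1.16 on the RPKM scale.

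KLF7, the closest relative of KLF6 and a factor first described as ubiquitous, was among the low members. It stood at 2, 2.40 and 2.07 RPKM with DMSO and at 3.09, 2.83 and 3.22 RPKM with OTI-611. Its groups did not overlap, and its log2 change was 0.36 ± 0.091 (SE, limma adjusted p = 0.0064; 0.32 without DMSO 1). With a pseudocount of 0.1 the change was 0.48 and with 5 it was 0.17, and the RPKM ratio to DMSO 2 and DMSO 3 was 1.36. With decimals dropped in every library, so that all are treated like DMSO 1, its change was 0.28 with an adjusted p of 0.133 and the call was lost.

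KLF5, the factor of proliferating epithelium, lies on chromosome 13 from 73054976 to 73077542. It was at 19, 20.6 and 18.6 RPKM with DMSO and at 19.05, 17.84 and 18.97 RPKM with OTI-611, and the groups overlapped. Its log2 difference was -0.06 with a 95% interval from -0.16 to 0.05 (limma adjusted p = 0.315), and -0.07 without DMSO 1. No difference was detectable, and the interval leaves room for a small one in either direction.

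The ratio of KLF4 to KLF5 in each library was 0.368, 0.403 and 0.474 with DMSO and 1.58, 1.72 and 1.79 with OTI-611. KLF5 was thus the more abundant of the pair in every DMSO library and KLF4 in every OTI-611 library. The exact permutation test of this log ratio gave p = 0.10, the smallest value that 3 against 3 libraries allow, and 0.12 after Benjamini-Hochberg adjustment over the 6 ratios computed. The ratio of KLF4 to KLF2 also did not overlap, at 3.50 to 3.70 with DMSO and 7.88 to 9.49 with OTI-611. The same held for KLF4 to KLF6, at 0.076 to 0.088 and 0.252 to 0.271. By a narrow gap it held for the listed values of KLF7 to KLF6, at 0.021 to 0.022 and 0.023 to 0.027. Each had the same exact permutation p of 0.10 and adjusted value of 0.12. In DMSO 1 the KLF7 to KLF6 ratio comes from whole numbers (2 and 92), and the missing decimals could close that gap and change its p.

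**Figure D2:**
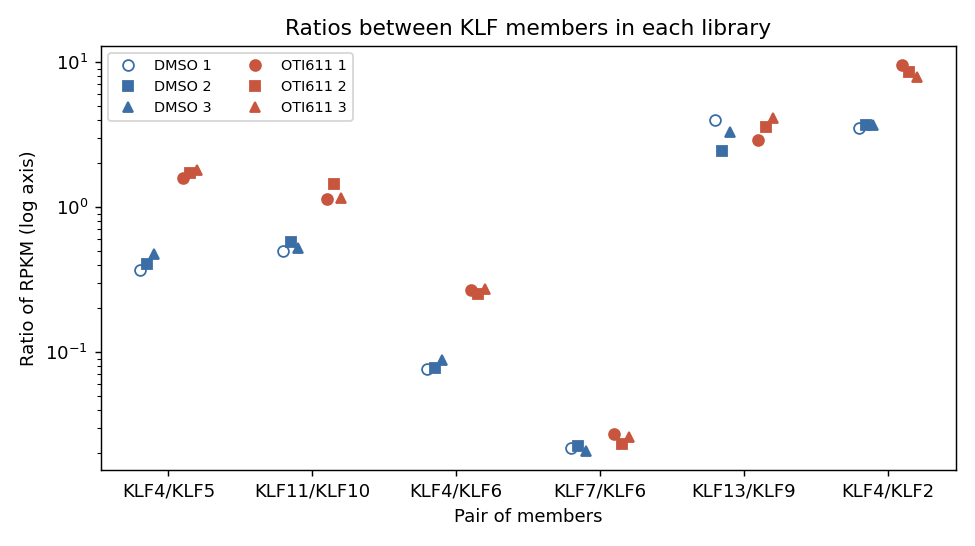
Ratio of the RPKM of 2 members in each library, on a log axis, for 6 pairs; blue points are DMSO libraries (open for DMSO 1) and red points OTI-611 libraries. The KLF4/KLF5 ratio lies at 0.368 to 0.474 with DMSO and at 1.58 to 1.79 with OTI-611. Of the ratios as listed only KLF13/KLF9 overlaps between the groups, and the KLF7/KLF6 gap is narrow.

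Among the SIN3A-binding repressors, KLF11 rose and its closest relative KLF10 had no detectable change. KLF11 (TIEG2), a TGF-beta-inducible factor also tied to insulin gene control, lies on chromosome 2 from 10042849 to 10054836. It was at 8, 8.94 and 8.61 RPKM with DMSO and at 17.8, 20.7 and 19.3 RPKM with OTI-611. All treated libraries are well above all controls. The log2 change was 1.09 ± 0.060 (SE, limma adjusted p = 5.35e-07), the 172nd highest of all genes tested, and 1.05 without DMSO 1 (adjusted p = 1.38e-05). The OTI-611 mean was 2.19 times that of DMSO 2 and DMSO 3. Exons of AC104794.4, on the opposite strand, cover 9.06% of the exon bases of KLF11, and reads from them could not be told apart if strand was not used in counting.

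KLF10 (TIEG1), named for its early induction by TGF-beta, lies on chromosome 8 from 102648779 to 102655902. It was at 16, 15.7 and 16.5 RPKM with DMSO and at 15.6, 14.4 and 16.9 RPKM with OTI-611. Both the lowest and the highest of these values belong to OTI-611 libraries. Its log2 difference was -0.04 with a 95% interval from -0.16 to 0.08 (limma adjusted p = 0.537), and -0.04 without DMSO 1. The ratio of KLF11 to KLF10 was 0.50, 0.570 and 0.521 with DMSO and 1.14, 1.43 and 1.14 with OTI-611 (exact permutation p = 0.10, adjusted value 0.12). The more abundant of these relatives was therefore KLF10 in every DMSO library and KLF11 in every OTI-611 library.

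KLF13, a factor known from T cells and the heart, was at 4, 4.04 and 4.01 RPKM with DMSO and at 4.35, 5.09 and 4.92 RPKM with OTI-611. Its groups did not overlap as listed, but DMSO 1, at 4 without decimals, could lie above the lowest OTI-611 value of 4.35. Its call was the least secure of the 7. The log2 change was 0.20 ± 0.069 (SE; limma adjusted p = 0.027), against 0.20 without DMSO 1 (adjusted p = 0.036) and 0.12 with a pseudocount of 5. The call was lost on leaving out DMSO 2 (adjusted p = 0.059), DMSO 3 (0.061), OTI-611 2 (0.117) or OTI-611 3 (0.092). It was also lost with no filter on low values (0.077) and with decimals dropped in every library (log2 change 0.09, adjusted p = 0.407).

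KLF9, a glucocorticoid-responsive factor, was the least abundant member. It was at 1, 1.66 and 1.23 RPKM with DMSO and at 1.504, 1.440 and 1.201 RPKM with OTI-611. The groups overlapped, with DMSO holding both the lowest and the highest listed value. The lowest is DMSO 1, which lacks decimals. Among libraries with decimals OTI-611 3 was the lowest, at 1.201, and the groups still overlapped. The log2 difference was 0.06, with a 95% interval from -0.26 to 0.38 (limma adjusted p = 0.723), and -0.03 without DMSO 1, so that at this level no difference was detectable and its sign rests on DMSO 1. The ratio of KLF13 to KLF9 was 2.43 to 4 with DMSO and 2.89 to 4.10 with OTI-611 (exact permutation p = 0.60). The DMSO 1 ratio of 4 comes from whole numbers, and the missing decimals could change it and the p. DMSO 2 and DMSO 3 gave 2.43 and 3.27, which still overlap the OTI-611 range.

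KLF3, the CtBP-binding repressor, lies on chromosome 4 from 38664196 to 38701042. It was at 7, 7.40 and 7.38 RPKM with DMSO and at 9.80, 9.45 and 8.97 RPKM with OTI-611. The groups did not overlap, and the spread within each was under 1 RPKM. The log2 change was 0.33 ± 0.050 (SE; limma adjusted p = 3.05e-04), against 0.31 without DMSO 1 (adjusted p = 0.0012). The antisense gene KLF3-AS1 covers 4.22% of its exon bases.

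**Figure D3:**
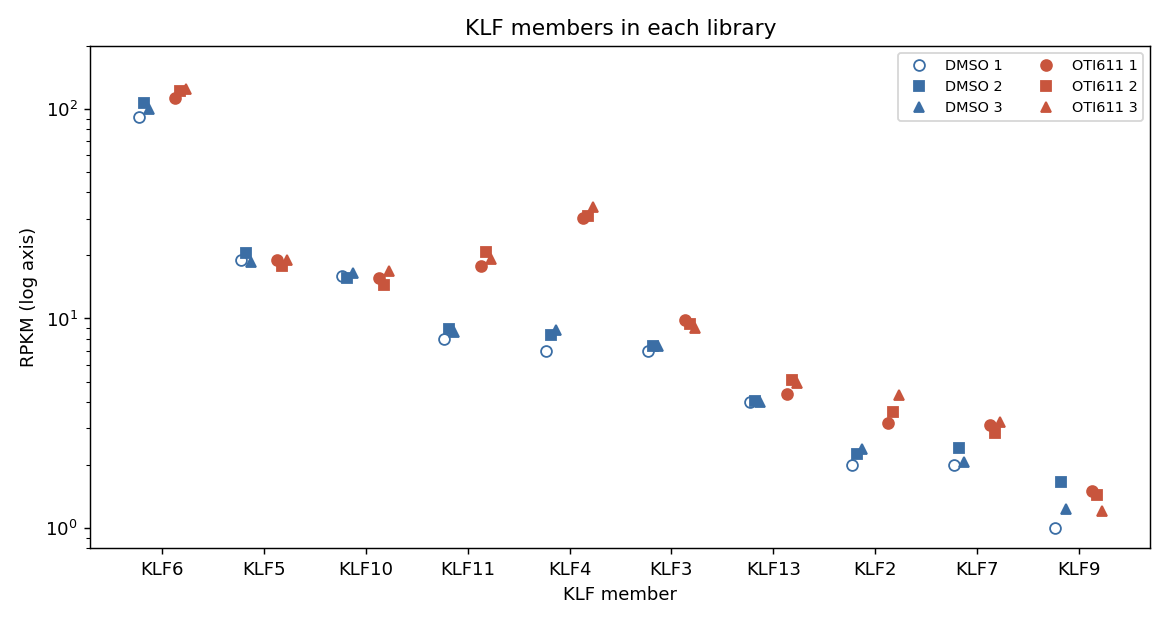
RPKM of each member in each library on a log axis, ordered by the mean of DMSO 2 and DMSO 3; blue points are DMSO libraries (open for DMSO 1) and red points OTI-611 libraries. KLF6 lies at 92 to 125 in all 6 libraries, KLF4 moves from 7 to 8.81 with DMSO to 30.1 to 34.0 with OTI-611, and the points of KLF5, KLF10 and KLF9 overlap between the groups.

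The order of the levels changed in its middle. With DMSO it ran KLF6, KLF5, KLF10, KLF11, KLF4, KLF3, KLF13, KLF2, KLF7 and KLF9. KLF11 and KLF4, KLF4 and KLF3, and KLF2 and KLF7 overlapped as neighbours, and the KLF4 and KLF3 overlap was absent without DMSO 1. With OTI-611 KLF4 came next after KLF6 at 30.1 to 34.0 RPKM with KLF11 after it, overlapping KLF5. The places of KLF6, KLF3, KLF13, KLF2, KLF7 and KLF9 were the same in both groups, and KLF2 and KLF7 again overlapped.

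Summed over the 10 members, the level was 158, 178 and 169 RPKM with DMSO and 217, 228 and 237 RPKM with OTI-611. Against DMSO 2 and DMSO 3 the sum was 53.6 RPKM higher, of which KLF4 made up 43.0%, KLF6 31.0% and KLF11 19.5%. KLF4 held 4.43%, 4.67% and 5.20% of the sum in the DMSO libraries and 13.9%, 13.5% and 14.3% in the OTI-611 libraries. KLF6 held 58.2%, 59.9% and 58.9% with DMSO and 51.9%, 53.4% and 52.8% with OTI-611, although its own level was higher there. Shares add up to the whole, so a larger share of one member lowers the others by construction.

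**Figure D4:**
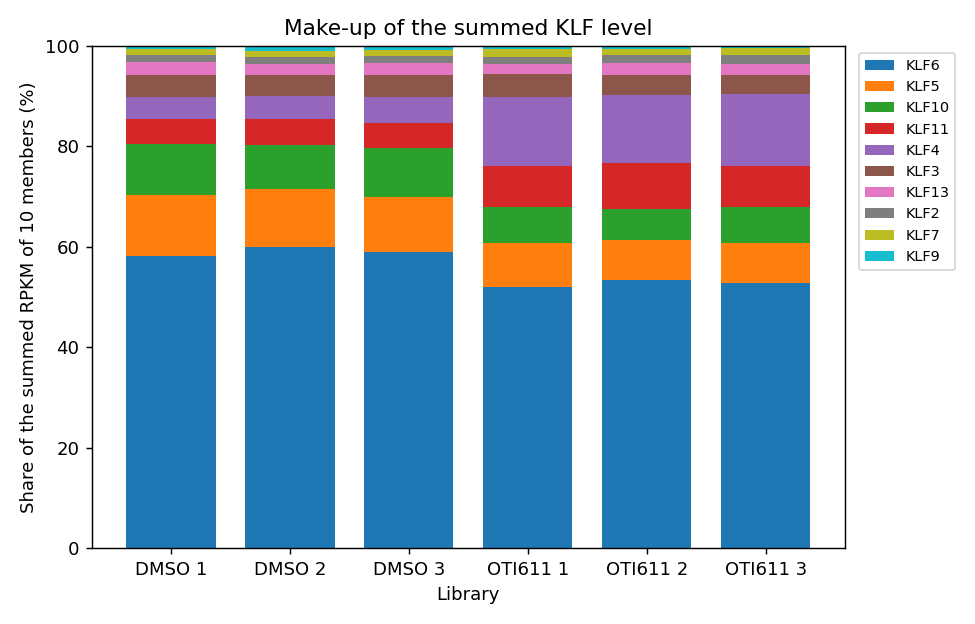
Share of each member in the summed RPKM of the 10 members, as stacked bars from 0 to 100% for the 6 libraries. KLF4 widens from at most 5.20% with DMSO to at least 13.5% with OTI-611, and KLF6 is the largest share in every library.

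The other KLF genes were mostly near the lower limit of the data. KLF16, a further SIN3A-binding member, was at 10, 10.9 and 9.54 RPKM with DMSO and at 15.5, 17.1 and 17.0 RPKM with OTI-611. It rose by a log2 change of 0.66 (limma adjusted p = 8.46e-06), and exons of AC012615.3 on the opposite strand cover 16.4% of its exon bases. KLF12, a relative of KLF3, had a log2 difference of 0.19 (adjusted p = 0.307), and 0.01 without DMSO 1. KLF8, KLF14, KLF15, KLF17 and KLF18 were under 1 RPKM in every library and were not tested in the main comparison.

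KLF15, a factor of liver and muscle metabolism, was one of these low genes. It was listed at 0 in DMSO 1, at 0.0256 and 0.0971 RPKM in DMSO 2 and DMSO 3, and at 0.338, 0.495 and 0.271 RPKM with OTI-611. These values correspond to an estimated 2 and 9 reads in the DMSO libraries with decimals and to 36, 53 and 29 reads in the OTI-611 libraries. When every gene was kept regardless of level, its log2 change was 0.39 (limma adjusted p = 0.016). The pseudocount of 1 compresses the change of so low a gene.

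The SP genes encode the closest relatives of the KLF factors, with the same kind of zinc fingers. Among the 6 tested, the test called 3 higher and left 3 uncalled (median log2 change 0.10). Over all genes tested, 27.8% were called higher and 37.3% lower. SP4 rose by 0.74 (from 3, 3.33 and 3.73 to 5.94, 6.78 and 6.09 RPKM; limma adjusted p = 3.62e-05), SP3 by 0.38 and SP1, the widely expressed GC-box activator, by 0.11. SP2 had a log2 difference of -0.06 (adjusted p = 0.248). SP8 and SP9 were under 1 RPKM in every library.

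Partners of KLF proteins went both ways, as did genes in general. Among 16 tested corepressors and coactivators, 5 were called higher, 4 lower and 7 neither. The median log2 change was 0.02, and -0.04 without DMSO 1. Of all genes tested, 27.8% were called higher and 37.3% lower. SIN3A, the scaffold that KLF9, KLF10, KLF11 and KLF13 bind, rose from 16, 16.6 and 16.9 to 20.5, 21.3 and 21.3 RPKM, a log2 change of 0.33 (limma adjusted p = 3.62e-05). The acetyltransferase gene CREBBP rose by 0.26. HDAC1, a deacetylase of the SIN3A complex, fell from 46, 46.1 and 45.9 to 32.8, 32.4 and 31.0 RPKM, a log2 change of -0.51 (limma adjusted p = 7.86e-07), and the acetyltransferase gene KAT2A fell by 0.20.

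Genes for the turnover of KLF proteins, ubiquitin ligases and deubiquitinases, were called higher in 7 and lower in 4 of 14 tested cases (median log2 change 0.15). The shares over all genes tested were 27.8% higher and 37.3% lower. The ligase genes SMURF2 (log2 change 0.64), SIAH1 (0.87) and SMURF1 (0.41) rose, and the deubiquitinase gene USP10 (-0.20) fell. Protein was not measured. In the MEK5-ERK5-MEF2 axis, which induces KLF2 and KLF4 in endothelial cells, 1 of 5 tested genes was called higher and 1 lower (median log2 change -0.02, and -0.11 without DMSO 1). MEF2A, a factor that binds the promoters of these genes there, rose by 0.54 (from 6, 5.57 and 6.08 to 9.49, 9.11 and 8.47 RPKM), the kinase gene MAP3K3 fell by 0.46, and MAP2K5 (-0.23, limma adjusted p = 0.068) and MAP3K2 (0.12, adjusted p = 0.058) did not pass.

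TGF-beta signalling is known to induce KLF10 and KLF11. Among 9 tested receptor, ligand and SMAD genes, 3 were called higher and 5 lower (median log2 change -0.18), and 2 and 5 without DMSO 1. The shares over all genes tested were 27.8% higher and 37.3% lower, and 26.3% and 42.4% without DMSO 1. SMAD3, which carries the signal to the nucleus, fell from 35, 35.0 and 35.2 to 21.7, 20.8 and 21.2 RPKM, a log2 change of -0.70. The ligand genes TGFB1 (-0.48) and TGFB2 (-0.57) and the inhibitory SMAD6 (-1.29) fell as well. The 3 called higher were SMAD4 (0.45), SMAD2 (0.40) and TGFBR1 (0.13), TGFBR1 not without DMSO 1. Glucocorticoid signalling is known to induce KLF9, and here 4 of 6 tested genes of that list were called higher and 2 lower (median log2 change 0.50). DUSP1 (1.04), TSC22D3 (0.89) and SGK1 (1.04) rose, while FKBP5, a chaperone gene strongly induced by the receptor, fell by 0.70. The list thus moved in both directions, beside a KLF9 difference of 0.06.

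Of the 33 tested genes described as KLF targets, 17 were called higher, 13 lower and 3 neither (median log2 change 0.13). The counts were 15 and 11 without DMSO 1. Over all genes tested the shares were 27.8% higher and 37.3% lower, and 26.3% and 42.4% without DMSO 1. HK2, a hexokinase gene, rose by 1.81, the stress factor gene ATF3 by 1.65 and the oncogene MYC by 0.93. CDKN1A, the cell cycle inhibitor that KLF4 and KLF6 are known to activate, rose by 0.53, and CDH1, the E-cadherin gene also described as a KLF4 and KLF6 target, fell by 1.09 on the log2 scale. CDKN1A and CDH1 were singled out after their values were seen.

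The genes most like KLF4 across the 5 libraries with decimals were LARP6, GTPBP2, HK2, HERPUD1 and MIA2, among 7771 genes with a mean of at least 5. Likeness was the root mean square distance of log2(RPKM + 1), each gene centred on its mean of DMSO 2 and DMSO 3, and it ranged from 0.068 (LARP6) to 0.098 (MIA2). LARP6 was at 2.22 and 2.23 RPKM in DMSO 2 and DMSO 3 and at 8.67, 9.48 and 10.2 RPKM with OTI-611. It reached the mean of at least 5 only through its OTI-611 values, so its place here rests on the group where it is high. The OTI-611 mean of HERPUD1, a gene of endoplasmic reticulum protein degradation, was 3.48 times that of DMSO 2 and DMSO 3. For KLF5, the member with the lowest log2 difference, the nearest genes were MTERF4, PTPN9, DPYSL2, RPS19BP1 and RAE1, at distances of 0.013 to 0.028. With 2 control and 3 treated libraries this likeness mostly ranks genes by the size of their difference.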

How the data were processed

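RNA of 3 DMSO and 3 OTI-611 libraries of DU145 was amplified by the Geo-seq method and made into libraries by transposition, per the labels' protocols. Per the submitters' processing notes the tools were TopHat2 2.0.9, HTSeq, Cufflinks 2.1.1, FastQC and CASAVA 1.7. The notes also list mm10, a mouse build, while all 32692 gene IDs are human; the build and annotation behind the values are thus not established, and strand use is not given in the sources used here. The authors deposited 1 table, in which 5 columns were taken as RPKM from their values (FPKM would look alike). Between 64.5% and 66.8% of low values were whole reads within 0.05 at the best depth, using GENCODE v29 exon lengths. The authors deposited the column DMSO 1 as whole numbers only, and it is treated as a score on the same scale.

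For the 11978 genes whose mean reached 1, log2(value + 1) was fitted with limma 3.58.1 in R 4.3.3 (group as the only term, mean-variance trend, two-sided, Benjamini-Hochberg over these genes, threshold 0.05). This scale understates changes of low genes. The fit was tested on simulated data for bias, false calls and recovery of larger changes. It missed part of the smaller changes there, for which a first criterion was not met and was dropped, so a gene that did not pass may still differ. The edgeR fit foreseen for a count table was not run. Named genes are the 10 members, the KLF and SP genes by level, up to 4 tested genes with the smallest p of each list, and the 5 nearest in pattern to the members with the highest and lowest change. Outside this rule, SMAD4, SMAD2, TGFBR1, CDKN1A, CDH1 as a KLF target, and the remaining epithelial line markers and other cell type markers are named. KLF1 and SP7 were not analysed here. Some genes that the rule would name are not reported here. The members and lists were chosen with earlier results of these data known, so they are described by counts and not tested as sets. Positions come from GENCODE v29 on GRCh38.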

Additional observations from a re-analysis of the deposited data

How the results depend on the processing

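Each member and each count was recomputed under 15 other settings. KLF2, KLF3, KLF4, KLF6 and KLF11 stayed higher and past the threshold in every setting in which they were tested, and KLF5, KLF9 and KLF10 in none. KLF13 lost its call with no filter on low values (log2 change 0.20, adjusted p = 0.077) and with decimals dropped in every library (0.088, adjusted p = 0.407), where KLF7 lost its call too (0.28, adjusted p = 0.133). With pseudocounts of 0.1 and 5 no member changed its call, while KLF2 ranged from 0.27 to 0.70, KLF7 from 0.17 to 0.48 and KLF13 from 0.12 to 0.24. Leaving out 1 library at a time gave 0.17 to 0.26 for KLF13, whose call was lost in 4 of the 6 fits, -0.094 to 0.013 for KLF10 and -0.033 to 0.17 for KLF9. Rescaling to the median log ratio turned KLF5 to 0.000269 and KLF10 to 0.016, neither past the threshold, and moved the median of all genes from -0.05 to 0.0017. With a minimum mean of 5, 4 members were called, because KLF2, KLF7, KLF9 and KLF13 were not tested. With decimals dropped the share of KLF6 with OTI-611 was 53.7%. With the replicate block 7756 genes and the same number of members, 7, were called. Same-numbered libraries did not deviate together (correlations of 0.019, 0.00041 and -0.058). With 3 libraries in a group and DMSO 1 without decimals, this check could not settle whether the numbers pair them. Depth limits KLF2 and KLF9 most among the members, and the low KLF15.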
